A study of Mus musculus with 8 samples.

Results

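Neuropeptides are short signalling peptides cut from larger precursor proteins, stored in dense-core vesicles and released beside the fast transmitters. In the retina most of them are known from amacrine cells, the inhibitory interneurons of the inner retina, where each peptide tends to mark a sparse population of its own. Retinal ganglion cells (RGCs), whose axons form the optic nerve, also carry a few of these precursors. The 9 genes described here encode peptide precursors and were taken by symbol from a list: Cartpt (cocaine- and amphetamine-regulated transcript peptide), Tac1 (substance P and neurokinin A), Sst (somatostatin), Npy (neuropeptide Y), Vip (vasoactive intestinal peptide), Penk (enkephalins), Cck (cholecystokinin), Gal (galanin) and Nmb (neuromedin B). All 9 of the 9 symbols were found among the 33696 genes of the count tables.

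Single-nucleus RNA sequencing (snRNA-seq) was carried out on retinae of female mice on the C57BL/6J background at postnatal day 120. The control group held 4 libraries of Piezo2f/f mice (replicates 1 to 4), in which both alleles of the mechanosensitive channel gene Piezo2 are flanked by loxP sites but no Cre is present. The conditional knockout (cKO) group held 4 libraries of Olig2-cre;Piezo2f/f mice (replicates 10 to 13), in which Cre is expressed from the Olig2 locus, so these mice also carry 1 functional Olig2 allele less. The driver is used for the oligodendrocyte lineage, and Olig2 is also known from a part of the retinal progenitors. Each library pooled 6 retinae, and nuclei had been sorted for the neuronal protein NeuN and the RGC protein RBPMS, so the nuclei of other classes described below are those that passed an RGC sort. A replicate is therefore a pool of retinae, and the spread between replicates includes the spread of that sort.

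After calling, filtering and doublet removal, 34951 nuclei remained of 45952 called barcodes, 15884 of control and 19067 of cKO libraries, with a median of 3648 to 9481 unique molecular identifiers (UMIs) per nucleus by library. Any pair of libraries shared at most 0.266% of the barcodes of the smaller one. Piezo2 itself was at 14.3 ± 2.18 CPM (counts of a gene per 1e6 counted UMIs; SD, n = 4) in RGC nuclei of control and 12.1 ± 2.54 of cKO libraries, with overlapping values. Counts at the 3′ end of a transcript do not check a deletion elsewhere in it. The cKO replicates 10 and 13 stood apart from the other libraries: 16.9% and 15.4% of their nuclei lay in cluster 1, a shallow cluster left unnamed, against 0.198% to 2.03% in the other 6 libraries. The genotype fits in the gates are therefore given with and without them.

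Nuclei were looked at through gates on marker genes and through clusters. The amacrine gate required at least 3 UMIs of Gad1 and Gad2 together, the enzymes that make the transmitter GABA, and the RGC gate at least 2 UMIs of Rbpms and Slc17a6 together, an RGC RNA-binding protein and a vesicular glutamate transporter. The amacrine gate held 1197 nuclei (543 control, 654 cKO; 111 to 229 per library) and the RGC gate 22514 (10501 control, 12013 cKO; 1568 to 3453 per library), and 140 nuclei passed both. Of the amacrine-gated nuclei, 91.8% also lay in clusters with amacrine markers, but the gate reached only 26.4% of the nuclei in those clusters, whereas the RGC gate reached 97.1% of the nuclei in clusters with RGC markers. Of the 60 clusters, 31 were RGC-like, 11 amacrine-like, 7 bipolar-like, 1 each rod-like, cone-like, horizontal-like and astrocyte-like, and 7 were left unnamed.

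The 9 genes lie on 8 chromosomes of the mouse genome, build GRCm39, and all are protein-coding. Cartpt (ENSMUSG00000021647) lies at chr13:100034990-100047006 on the minus strand, Tac1 (ENSMUSG00000061762) at chr6:7554120-7565834 on the plus strand and Sst (ENSMUSG00000004366) at chr16:23707321-23711733 on the minus strand. Npy (ENSMUSG00000029819) lies at chr6:49799026-49806489 and Vip (ENSMUSG00000019772) at chr10:5589186-5599956, both on the plus strand. Penk (ENSMUSG00000045573) at chr4:4132722-4141856, Cck (ENSMUSG00000032532) at chr9:121315695-121324863, Gal (ENSMUSG00000024907) at chr19:3459912-3464881 and Nmb (ENSMUSG00000025723) at chr7:80551975-80554829 are on the minus strand. A pair of them share sequence with a neighbour: the long noncoding RNA A830012C17Rik overlaps Penk by 3536 bases on the opposite strand, and Sec11a overlaps Nmb by 193 bases on the same strand, so reads in those stretches could be assigned to either gene. Whether the counting used strand is not given in the sources used here.

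Peptide genes are textbook targets of the transcription factor CREB, which binds the cAMP response element TGACGTCA, and the somatostatin promoter is where this element was worked out. RefSeq promoters of build GRCm38.p6, from 250 bases before to 50 bases after the start, were matched for 8 of the 9 genes and searched on both strands for the full element and for its part TGACG, which lies within the full element, and on the gene's own strand for TATAAA. The full element stood in Cartpt, 112 bases before the start, and in Sst, 48 bases before the start, and in 1.55% of all 32851 promoters. The shorter TGACG stood in Cartpt, Tac1, Sst, Vip and Cck, against 17.8% of all promoters, and TATAAA in Vip alone of the 8, against 7.59%. The 100 bases from 120 to 21 bases before the start are shown, 5′ to 3′ along the gene, for the 4 genes that hold TGACG and were higher in amacrine than in RGC nuclei (below), with TGACGTCA, TGACG (or its complement CGTCA) and TATAAA in capitals. They are chr13:99900704-99900803 (minus strand) for Cartpt, chr16:23890865-23890964 (minus strand) for Sst, chr6:7554941-7555040 (plus strand) for Tac1 and chr10:5639098-5639197 (plus strand) for Vip.
Cartpt: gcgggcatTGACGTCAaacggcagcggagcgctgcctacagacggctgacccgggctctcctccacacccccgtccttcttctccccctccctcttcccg
Sst: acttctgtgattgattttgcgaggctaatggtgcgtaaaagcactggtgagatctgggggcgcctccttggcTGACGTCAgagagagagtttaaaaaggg
Tac1: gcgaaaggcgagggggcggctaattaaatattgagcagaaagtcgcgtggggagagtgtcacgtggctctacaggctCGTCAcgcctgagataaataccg
Vip: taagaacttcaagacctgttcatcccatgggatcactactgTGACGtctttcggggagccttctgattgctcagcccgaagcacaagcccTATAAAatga
A match of letters is a description of the sequence and was not tested against any binding data.

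Peptide precursor transcripts made up a larger share of the UMIs in empty droplets than in nuclei. In droplets taken as empty, which hold free RNA, Cartpt stood at a mean of 2215 CPM (range 1719 to 3068, n = 8 libraries) against 279 CPM over all nuclei, a ratio of 7.94. The ratio was 7.91 for Tac1 (233 against 29.5 CPM), 12.5 for Sst (135 against 10.8), 15.0 for Npy (47.1 against 3.14) and 13.8 for Cck (61.1 against 4.42). It was 10.2 for Gal (22.2 against 2.18 CPM), 4.77 for Penk (34.5 against 7.23) and 13.5 for Vip (10.3 against 0.763), of which only 174 UMIs were counted in nuclei. Each of these 8 genes was higher in the empty droplets in 8 of 8 libraries. Nmb differed least, at 6.42 against 4.49 CPM, a ratio of 1.43, and was higher in the empty droplets in 6 of 8 libraries.

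Read against all genes, these ratios lay near the top. Of the 17123 genes with at least 200 UMIs in nuclei, 47.3% were higher in the empty droplets and the median log2 ratio was −0.11, whereas the median over the 8 neuropeptide genes that reached 200 UMIs, all but Vip, was 3.17. Npy exceeded 99.4% of those genes, Cck 99.2%, Sst 98.8%, Gal 97.9%, Cartpt 96.4%, Tac1 96.3%, Penk 91.2% and Nmb 64.9%. Of 14 other peptide precursors with enough UMIs the median log2 ratio was 1.26, of 11 peptide receptors 0.58 and of 22 genes for peptide processing and dense-core vesicles 0.28. So low counts of a member in any single nucleus have to be read against free RNA, and clusters are compared below with the empty droplets.

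**Figure D1:**
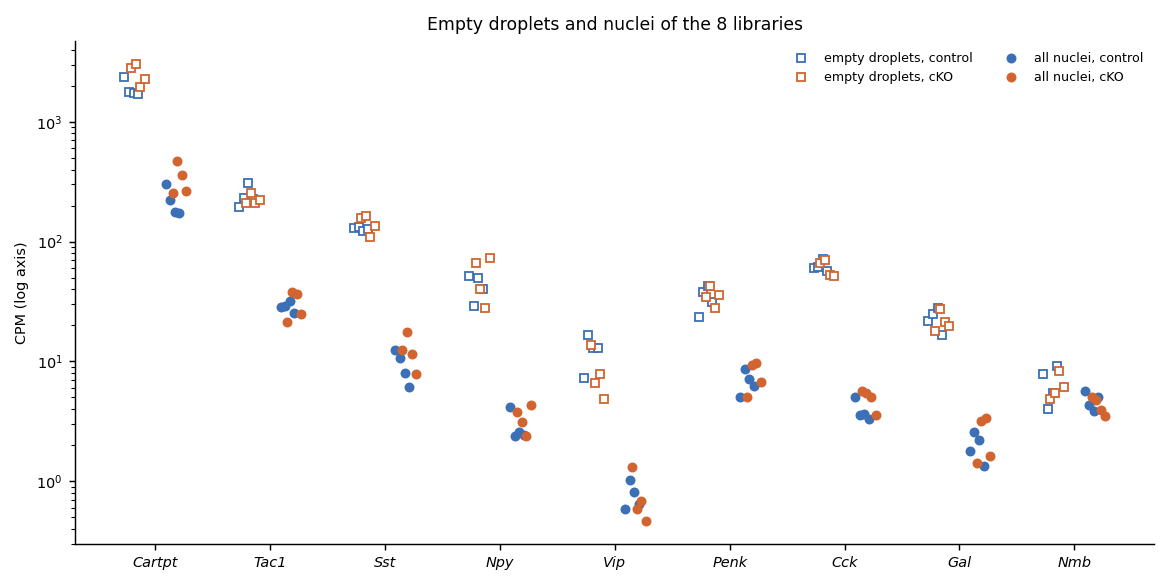
Level of each of the 9 neuropeptide genes (CPM, log axis) in the empty droplets and over all nuclei, 1 point per library and 8 libraries per gene. Cartpt spans 1719 to 3068 CPM in empty droplets around a mean of 2215, against a mean of 279 in nuclei, and Nmb is the gene whose 2 sets of points lie closest, at means of 6.42 and 4.49.

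Rod photoreceptor nuclei, a class that should lack these transcripts, served as the reference for free RNA within nuclei, at a lower depth than the gated nuclei. The rod-like cluster held Cartpt at 308 CPM, Tac1 at 31.4, Sst at 19.2 and Npy at 8.62 (means of 8 libraries), and for these genes its level was 0.139, 0.136, 0.143 and 0.169 of that in the empty droplets of the same library. The ratio was 0.168 for Penk, 0.107 for Cck, 0.0811 for Gal and 0.0305 for Vip, of which the rod-like nuclei held 1 UMI in all. Nmb differed from the others, with a rod-like level 1.10 times that of the empty droplets from 17 UMIs.

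The share of a gene's UMIs held by its leading cluster differed between the members, from 62.1% for Sst and 59.2% for Vip to 5.07% for Gal. Of the 60 clusters, 1 exceeded the level of the empty droplets for each of Cartpt, Tac1, Sst, Npy, Vip, Cck and Gal, against 5 for Penk and 4 for Nmb. The peptide genes were among 109 genes kept out when the clusters were drawn, so the position of a peptide gene along them was not fixed by its own counts. All the same, clusters were drawn on these nuclei, and the levels are given as a description.

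**Figure D2:**
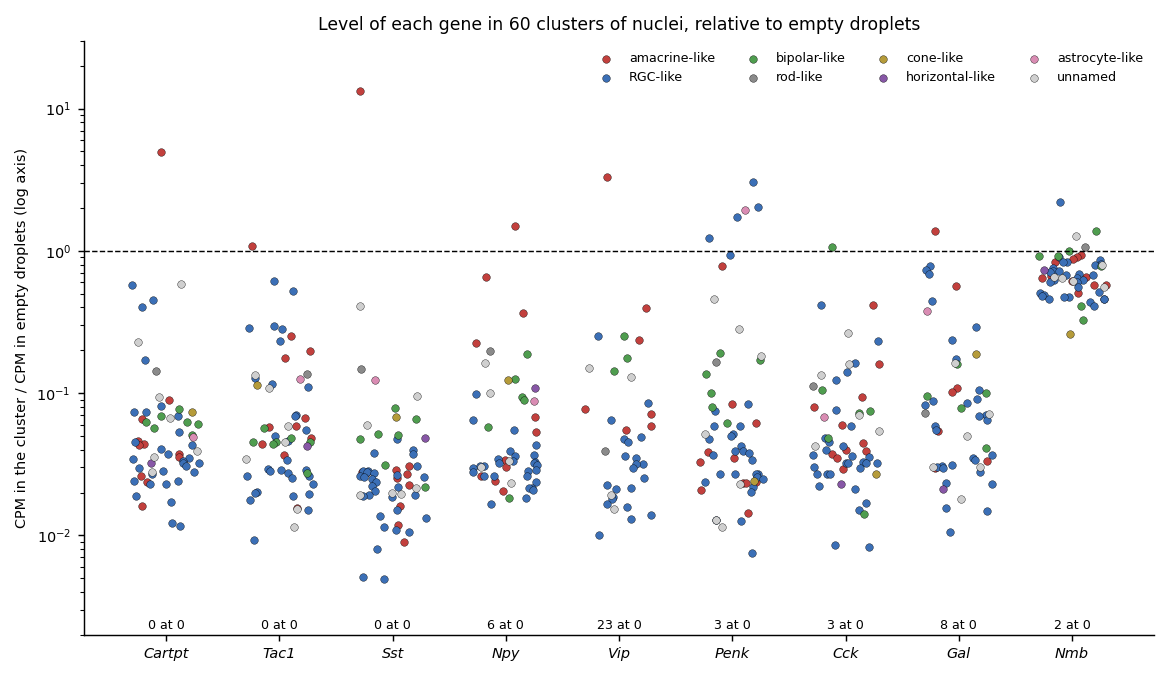
Level of each neuropeptide gene in the 60 clusters, as CPM pooled over libraries divided by the CPM of the empty droplets (log axis), 1 point per cluster, coloured by class. A single cluster lies above 1 for Cartpt, Tac1, Sst, Npy, Vip, Cck and Gal, whereas 5 clusters do for Penk and 4 for Nmb.

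Cartpt was highest in cluster 51, an amacrine-like cluster of 188 nuclei. These nuclei, 0.538% of all, carried 34.1% of the 60660 Cartpt UMIs, at 11043 CPM pooled over libraries, 8.50 times the next cluster and 4.99 times the empty droplets. Every one of the 188 nuclei held at least 3 Cartpt UMIs, the fewest being 8 and the most 363. The cluster also held Slc18a2, the vesicular monoamine transporter, at 987 CPM, Th, the rate-limiting enzyme of dopamine synthesis, at 241 CPM and Ddc, the next enzyme of that path, at 204 CPM, but no UMI of the dopamine transporter Slc6a3. Gad1 stood at 118 CPM there.

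The level of Cartpt in cluster 51 followed the libraries rather than the groups. The control replicates 1 to 4 stood at 9334, 11673.5, 10044 and 8935 CPM, and the cKO replicates 10 to 13 at 7033, 16389, 17107 and 7256 CPM. All 4 control values lay between the pair of cKO values below them, replicates 10 and 13, and the pair above them, replicates 11 and 12. The group means were 9997 ± 1208 and 11946 ± 5553 CPM (SD, n = 4 each; exact two-sided permutation test, p = 0.457). The share of amacrine-like nuclei that fell in cluster 51 was 3.58% ± 0.837 of control and 5.58% ± 1.16 of cKO libraries (exact permutation test, p = 0.0571, where the smallest possible p is 0.0286).

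Cartpt was also present in other clusters, at levels below the empty droplets. Cluster 30, left unnamed, stood at 1299 CPM with at least 3 UMIs in 92.1% of 455 nuclei, and RGC-like cluster 25 at 1274 CPM with at least 3 UMIs in 90.2% of 520 nuclei. Cluster 30 scored best for RGC, with 6 RGC markers. It was left unnamed because its most raised genes held the horizontal cell marker Calb1. Its nuclei are therefore not counted in the levels of RGC-like nuclei. RGC-like clusters 38 and 14 followed at 994 and 886 CPM, with at least 3 UMIs in 85.9% and 77.5% of their nuclei. Cluster 38 held 1032 CPM of Col25a1, a transmembrane collagen. Of the 1146 nuclei with at least 10 Cartpt UMIs, 277 lay in cluster 30, 212 in cluster 25, 205 in cluster 14 and 187 in cluster 51. Over all 60 clusters the median was 95.5 CPM. In cluster 30 the control replicates were at 1300, 1028, 820 and 1094 CPM and the cKO replicates 10 to 13 at 1166, 2019, 1806 and 1186 CPM, which overlapped (exact permutation test, p = 0.114). Here again replicates 11 and 12 were the highest of the 8 libraries.

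Sst was the most concentrated gene of the 9. Amacrine-like cluster 56, with 101 nuclei or 0.289% of all, carried 62.1% of its 2361 UMIs at 1792 CPM, 32.2 times the next cluster and 13.3 times the empty droplets. Of the 58 nuclei with at least 10 Sst UMIs, 57 lay in cluster 56. The control replicates 1 to 4 stood at 2368, 2161, 1964 and 1699 CPM in this cluster and the cKO replicates 10 to 13 at 492, 3856, 3655 and 951 CPM. As for Cartpt, replicates 10 and 13 lay below all control libraries and replicates 11 and 12 above them, and the group means of 2048 ± 285 and 2239 ± 1763 CPM did not differ beyond that spread (exact permutation test, p = 0.743). At least 3 Sst UMIs were found in 66.7% of the cluster's nuclei in control replicate 1 and 45.5% in cKO replicate 10, against 92.9% to 100% in the other 6 libraries.

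Galanin transcripts were seen in part of the Sst cluster. Cluster 56 was the leading cluster of Gal, at 30.6 CPM from 25 UMIs, 1.38 times the empty droplets. A Gal UMI was found in 25.3% of the 83 nuclei with at least 3 Sst UMIs and in 5.56% of the 18 others, and a Penk UMI in 15.7% and 16.7%, where Penk stood at 26.9 CPM against 34.5 CPM in the empty droplets, at median depths of 6969 and 6342 UMIs. Most of the 18 others came from control replicate 1 and cKO replicate 10, where 10 of 15 and 10 of 22 nuclei held at least 3 Sst UMIs. These shares thus also compare libraries. At least 3 Gal UMIs were found in 0 of the 101 nuclei. Of the 11 nuclei that held them, 4 lay in RGC-like cluster 16. Gal counts per library in that cluster were too few for a comparison of groups, with 12.4, 53.2, 102 and 10.8 CPM in cKO replicates 10 to 13 and 31.6, 23.5, 40.4 and 15.6 CPM in control replicates 1 to 4.

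Vip counts were few, and most came from 1 cluster. Amacrine-like cluster 17, with 681 nuclei, held 59.2% of the 174 Vip UMIs at 34.1 CPM, 8.30 times the next cluster, and 15 of the 16 nuclei with at least 3 Vip UMIs. Only 4.85% of its nuclei held a Vip UMI. The cluster also carried Chrm2, a muscarinic acetylcholine receptor, at 251 CPM and Slc17a8, the vesicular glutamate transporter VGLUT3, at 67.0 CPM. Vip stood at 14.8, 57.0, 29.8 and 32.2 CPM in control replicates 1 to 4 and at 48.4, 36.5, 59.7 and 10.8 CPM in cKO replicates 10 to 13, with full overlap (exact permutation test, p = 0.714).

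Tac1 was spread over amacrine and RGC clusters. Amacrine-like cluster 18 led at 252 CPM, 1.08 times the empty droplets, with 15.6% of the 6533 UMIs in 651 nuclei, of which 21.8% held at least 3. RGC-like clusters 15 and 11 followed at 143 and 121 CPM, with at least 1 UMI in 61.8% and 49.6% of their nuclei, cluster 15 also holding the transcription factor gene Foxp2 at 132 CPM. Foxp2 was among the most raised genes of RGC-like clusters 4 and 5 but not of cluster 15. In cluster 18 the control replicates 1 to 4 stood at 225, 254, 287 and 275 CPM and the cKO replicates 10 to 13 at 109, 375, 442 and 173 CPM. The order of the 4 cKO libraries was thus the same split as for Cartpt and Sst, replicates 10 and 13 below and 11 and 12 above all control values (exact permutation test of the groups, p = 0.857). RGC-like cluster 15 showed it too, at 103 and 114 CPM in replicates 10 and 13 and 190 and 186 CPM in replicates 11 and 12, around control values of 127 to 157 CPM. Cluster 15 held 3.77% ± 0.375 of RGC-like nuclei in control and 3.15% ± 0.141 in cKO libraries, without overlap. The exact permutation test gave p = 0.0286, the smallest possible and not adjusted for the clusters looked at. The part of all clusters that would separate in this way is not given here, so the difference in share is a description.

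Npy was highest in amacrine-like cluster 45, at 71.0 CPM, 1.51 times the empty droplets. This cluster of 294 nuclei carried Chat, the enzyme that makes acetylcholine, at 379 CPM, the choline transporter gene Slc5a7 at 280 CPM and Gad1 at 358 CPM, the transcripts by which starburst amacrine cells are known. Cluster 18, the leading Tac1 cluster, came next at 30.8 CPM and held 14 of the 25 nuclei with at least 3 Npy UMIs, against 5 in cluster 45. Npy was at 84.0, 117, 84.0 and 49.8 CPM in control replicates 1 to 4 of cluster 45 and at 62.9, 65.0, 50.4 and 56.3 CPM in cKO replicates 10 to 13, where every cKO value lay above the lowest control value and below the others (exact permutation test, p = 0.143).

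Penk was highest in RGC clusters. RGC-like clusters 44, 8 and 22 stood at 106, 70.3 and 59.2 CPM, 3.07, 2.04 and 1.72 times the empty droplets, and together with cluster 28 at 42.5 CPM were the RGC clusters above that level. Cluster 8 carried the transcription factor gene Zic1 at 127 CPM. The astrocyte-like cluster 58 had 66.8 CPM from only 16 UMIs, 10 of them in a single nucleus. In cluster 44 Penk was at 68.1, 103, 126 and 109 CPM in control replicates 1 to 4 and 57.5, 156, 126 and 105 CPM in cKO replicates 10 to 13, with replicate 10 the lowest and replicate 11 the highest of all 8 (exact permutation test, p = 0.714). Cluster 44 held 1.67% ± 0.120 of RGC-like nuclei in control and 1.32% ± 0.196 in cKO libraries (exact permutation test, unadjusted p = 0.0571). The opposite-strand RNA A830012C17Rik followed Penk over the 60 clusters more closely than any member followed another gene, with a Pearson correlation of log2(CPM + 1) of 0.909.

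Cck, Gal and Nmb had few counts, 967, 493 and 976 UMIs over all nuclei. Cck led in bipolar-like cluster 43 at 64.9 CPM, 1.06 times the empty droplets, followed by RGC-like cluster 25 at 25.5 CPM and the Chat-carrying cluster 45 at 25.3 CPM. In the unnamed cluster 12 Cck was at 7.21, 9.04, 13.0 and 14.0 CPM in control replicates 1 to 4 and 27.4, 19.8, 21.5 and 16.6 CPM in cKO replicates 10 to 13, groups that did not overlap (exact permutation test, p = 0.0286, the smallest p possible and not adjusted for the clusters and genes looked at). These levels were 0.264 of that in the empty droplets. Cluster 12 was not a leading cluster of Cck. How many other pairs of gene and cluster separated in this way is not given here. After cluster 56, Gal was highest in RGC-like cluster 53 at 17.4 CPM, which carried Spp1 (osteopontin) at 183 CPM. Nmb was highest in RGC-like cluster 16 at 14.2 CPM, which carried the melanopsin gene Opn4 at 246 CPM and the transcription factor gene Eomes at 112 CPM, as intrinsically photosensitive RGCs are known to do. Only 3 nuclei in all held at least 3 Nmb UMIs.

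**Figure D3:**
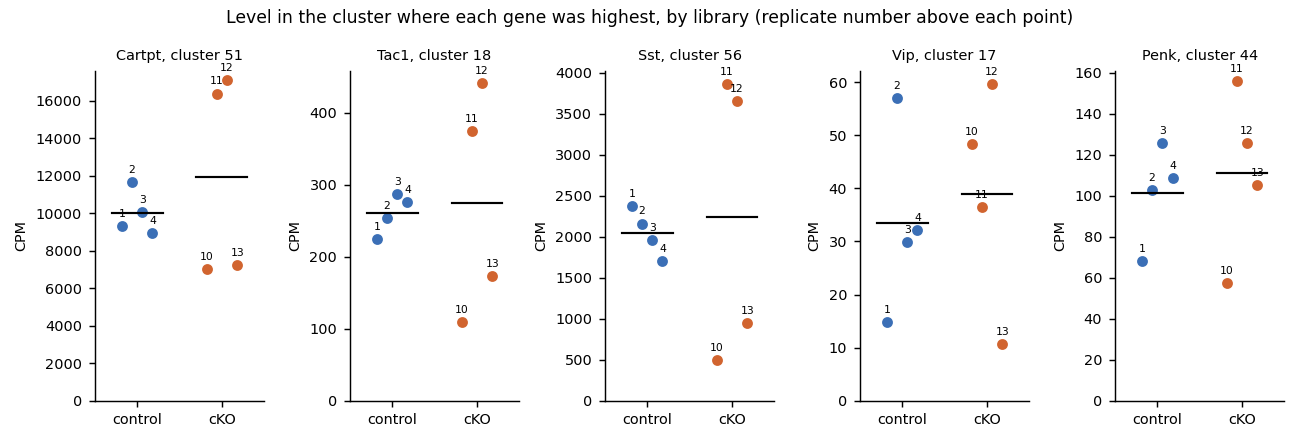
CPM of Cartpt, Tac1, Sst, Vip and Penk in the cluster where each is highest (51, 18, 56, 17 and 44), 1 point per library marked with its replicate number, control beside cKO. For Cartpt, Tac1 and Sst the cKO replicates 11 and 12 lie above all 4 control libraries and the replicates 10 and 13 below them.

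The split of the cKO libraries moved with their share of nuclei in cluster 1, 16.9% and 15.4% in replicates 10 and 13 against 0.432% and 0.359% in replicates 11 and 12. Mitochondrial transcripts made up 0.0221% to 0.0577% of the UMIs of RGC-like nuclei in replicates 10 and 13, 0.0678% to 0.0809% in replicates 11 and 12 and 0.0291% to 0.0709% in control libraries. Malat1, a nuclear noncoding RNA, made up 3.56% to 6.08%, 3.66% to 5.97% and 3.95% to 6.62% in the same order, and the median UMIs per RGC-like nucleus were 6755 to 8619, 4526 to 7150 and 4878.5 to 10853. The part of any of these in the levels of the peptide genes was not tested.

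Levels were also ranked over whole classes. Across the 8 libraries Cartpt was highest in amacrine-like nuclei, at 1009 ± 611 CPM with a range of 550 to 2050, and did not overlap the rod-like nuclei that came next. Cluster 51 held all but 2099 of the 22758 Cartpt UMIs of the class, and without it amacrine-like nuclei stood at 95.3 ± 31.0 CPM, with a mean below those of rod-like and RGC-like nuclei. The cluster was chosen as the one highest in Cartpt, and the RGC-like clusters highest in it were kept in, so this order is a description. RGC-like nuclei followed with 174 ± 55.4 CPM, overlapping the rod-like range. Amacrine-like nuclei also led for Tac1 at 68.3 ± 19.3 CPM, Sst at 69.3 ± 42.4, Npy at 13.1 ± 1.73 and Vip at 4.82 ± 2.17, but each range overlapped that of the next class. Without cluster 56, chosen in the same way for Sst, the amacrine-like level of Sst was 3.18 ± 1.39 CPM. Penk was higher in astrocyte-like than in RGC-like nuclei, 41.5 ± 75.8 against 8.99 ± 2.17 CPM, with overlap and from 16 UMIs. Cck led in bipolar-like nuclei at 12.0 ± 3.32 CPM, with a range of 6.42 to 16.6 that overlapped the rod-like range of 0 to 19.7. For Gal and Nmb, whose highest means were in astrocyte-like and rod-like nuclei, each class overlapped the next.

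The share of nuclei with a UMI has to be read beside that of the rod-like nuclei. Cartpt was found in 40.5% of amacrine-gated and 45.1% of RGC-gated nuclei (means of 8 libraries, at mean median depths of 7255 and 7421 UMIs), against 27.9% of rod-like nuclei, whose mean median depth was 1073 UMIs. Its level in RGC-gated nuclei, 202 CPM, was below the 308 CPM of the shallower rod-like nuclei, but the depths differ, and at least 3 Cartpt UMIs were found in 12.5% of RGC-gated against 1.10% of rod-like nuclei. The part of free RNA in these shares was not tested. Tac1 was found in 17.4% and 13.9% of gated nuclei against 3.51% of rod-like nuclei, and Npy in 5.66% and 1.13% against 0.963%. Sst was found in 3.19% and 2.33% against 2.28%, and Penk in 0.958% and 4.58% against 0.741%. For Cck the shares were 3.00% and 2.85% against 0.740%, for Gal 3.10% and 1.48% against 0.211%, for Nmb 2.91% and 3.42% against 0.888% and for Vip 1.11% and 0.170% against 0.0275%. By level, RGC-gated nuclei stood below rod-like nuclei for Tac1 (25.8 against 31.4 CPM), Sst (3.58 against 19.2), Npy (1.63 against 8.62), Cck (4.08 against 6.58) and Nmb (4.43 against 6.83) too, and above them for Penk (8.18 against 6.09) and Gal (2.08 against 1.55). Amacrine-gated nuclei stood above rod-like nuclei for Cartpt, Tac1, Vip and Gal, close to them for Sst (20.9 against 19.2) and Npy (10.6 against 8.62), and below them for Penk, Cck and Nmb.

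To ask which genes differ between the classes, amacrine-gated and RGC-gated nuclei that passed 1 gate only were summed per control library and compared with edgeR, with the library as a block. Of 17213 genes tested, 10.5% were higher in amacrine and 12.4% higher in RGC nuclei at a Benjamini-Hochberg adjusted p under 0.05 and a log2 difference of more than 0.5. All 9 neuropeptide genes were tested, of which 5 were higher in amacrine nuclei (Cartpt, Tac1, Sst, Npy and Vip), 1 higher in RGC nuclei (Penk), and Cck, Gal and Nmb did not pass. Vip is counted here but could pass the filter only where it was high (below). The members passed in the amacrine direction in 5 of 9 cases and over all genes in 10.5%. The median log2 difference was 1.21 over the 9 genes and −0.03 over all genes tested.

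Sst and Vip showed the largest fitted class differences among the members, from few counts. Sst was at 5.67, 43.7, 70.8 and 20.3 CPM in amacrine nuclei of control replicates 1 to 4 and at 3.55, 3.12, 2.41 and 1.10 CPM in RGC nuclei, so it was higher in 4 of 4 libraries without overlap. The log2 difference was 3.75 ± 0.28 (SE, edgeR, adjusted p = 1.75e-18). That error is estimated in part over all genes, and the difference varied widely between these 4 libraries. Cluster 56, chosen for its Sst level, gave 84.1% of the Sst UMIs of these amacrine nuclei from 6 of 477 nuclei. Without it the log2 difference was 1.21 ± 0.45 (edgeR). Since the cluster was chosen as the one highest in Sst, this value is a description. Vip was at 0, 18.8, 1.06 and 5.91 CPM in amacrine nuclei, from 30 UMIs, and at 0.273, 0.252, 0.166 and 0.105 CPM in RGC nuclei, from 18 UMIs. It was higher in 3 of 4 libraries, with a fitted log2 difference of 4.96, and 22 of the 30 UMIs came from replicate 2. Vip passed the filter on low counts only through amacrine libraries and was not tested without replicate 2 or without replicate 4, so its difference is given as a description. Cluster 17 gave 96.7% of the Vip UMIs of these amacrine nuclei.

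Npy and Tac1 were higher in amacrine nuclei in every control library. Npy was at 17.0, 14.6, 6.34 and 11.0 CPM in amacrine nuclei of replicates 1 to 4 and at 2.52, 1.33, 1.16 and 0.420 CPM in RGC nuclei, without overlap. The log2 difference was 3.19 ± 0.39 (edgeR, adjusted p = 2.60e-10). Tac1 was at 62.4, 53.9, 79.3 and 57.4 CPM in amacrine and 25.7, 26.2, 27.5 and 21.5 CPM in RGC nuclei, again without overlap, a log2 difference of 1.21 ± 0.12 (edgeR, adjusted p = 5.12e-13).

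Cartpt changed direction with a single cluster. In amacrine nuclei it stood at 647, 313, 719 and 194 CPM in control replicates 1 to 4 and in RGC nuclei at 240, 169, 130 and 128 CPM, higher in 4 of 4 libraries although the ranges overlapped. The log2 difference was 1.29 ± 0.11 (edgeR, adjusted p = 7.34e-16), and it ranged from 0.89 to 1.52 with 1 library left out. That error is estimated in part over all genes, and the level differed widely between these libraries. Cluster 51 contributed 5, 2, 4 and 1 amacrine-gated nuclei in those libraries, and gave 84.5% of the Cartpt UMIs of these amacrine nuclei. Without that cluster Cartpt was lower in amacrine than in RGC nuclei, with a log2 difference of −1.25 ± 0.10 (edgeR). The cluster was chosen as the one highest in Cartpt, so leaving it out had to lower the amacrine side. The RGC-like clusters highest in Cartpt were kept in, so this value is a description.

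Penk was lower in amacrine nuclei. It was at 1.89, 2.57, 1.06 and 0 CPM in amacrine nuclei of control replicates 1 to 4, from 5 UMIs, and at 5.87, 9.37, 8.10 and 7.40 CPM in RGC nuclei, so the groups did not overlap. The log2 difference was −2.70 ± 0.49 (edgeR, adjusted p = 6.33e-06), and it ranged from −3.35 (without replicate 2) to −2.22 (without replicate 4) with 1 library left out. With nuclei thinned to 2000 UMIs the call was lost, at −1.91 and an adjusted p of 0.126 (edgeR). The differences of Cck (−0.33), Gal (0.53) and Nmb (−0.23) had edgeR adjusted p values of 0.674, 0.530 and 0.726.

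In the 4 cKO libraries, which share no nuclei with the control libraries, Cartpt, Tac1, Sst and Npy passed again in the amacrine direction and Gal passed as well, where 10.5% of all 18256 genes tested were higher in amacrine and 12.4% higher in RGC nuclei. Vip and Penk also passed in the same direction as before, but Vip entered the test only through amacrine and Penk only through RGC libraries, so their differences are descriptions. The log2 differences of amacrine over RGC nuclei were 4.13 for Vip, 2.54 for Npy, 1.53 for Sst, 1.48 for Cartpt, 1.13 for Tac1 and 1.14 for Gal (edgeR, adjusted p of Gal 0.0368). Cartpt, Sst and Npy were higher in 4 of 4 cKO libraries, Tac1 and Gal in 3 of 4 and Vip in 2 of 4, being at 0 in the other two, and among these genes only Npy had groups that did not overlap. Penk had 2 UMIs in amacrine nuclei of cKO libraries against 784 in RGC nuclei. Sst thus stood at 11.9 ± 8.05 CPM in amacrine nuclei of cKO libraries, where cluster 56 put 3, 0, 0 and 3 nuclei of replicates 10 to 13 through this gate alone. By library it was at 14.7, 7.69, 3.49 and 21.8 CPM in amacrine and 5.88, 6.47, 2.18 and 3.58 CPM in RGC nuclei, so the smaller differences were those of replicates 11 and 12. This comparison was not run without replicates 10 and 13.

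**Figure D4:**
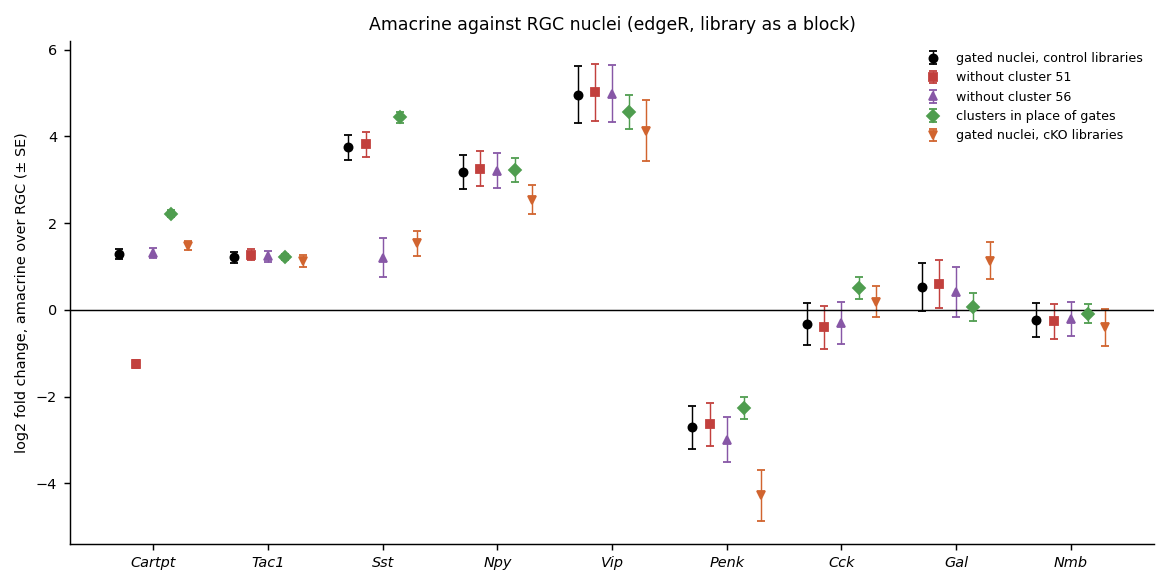
Log2 difference of amacrine over RGC nuclei for each neuropeptide gene under 5 settings of the comparison, with bars for the standard error. Sst, Npy and Vip lie above 0 and Penk below 0 in each setting, and Cartpt moves from 1.29 to −1.25 when cluster 51 is left out.

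Other genes of the peptide system, from lists of 46 further precursors, 22 genes of peptide processing and dense-core vesicles and 26 peptide receptors, were counted in the same test, where 10.5% of all genes were higher in amacrine and 12.4% higher in RGC nuclei. Of 15 further precursors tested, 5 were higher in amacrine nuclei, led by Tac2 (neurokinin B, log2 difference 5.59) and Grp (gastrin-releasing peptide, 5.03), and 3 were higher in RGC nuclei, among them Adcyap1 (pituitary adenylate cyclase-activating peptide, −3.82) and Calca (calcitonin gene-related peptide, −2.18). The remaining precursors that passed were Pdyn (1.92), Pomc (1.34), Nucb2 (1.01) and, with a large error, Calcb (−7.22 ± 2.33). Of 22 processing and vesicle genes, 6 were higher in amacrine nuclei (Syt10, Cadps2, Vgf, Chgb, Pcsk1 and Scg2, at 4.58, 2.02, 1.92, 1.06, 0.90 and 0.59) and 2 in RGC nuclei (Rph3a at −1.49 and Pcsk2 at −1.05), a share in the RGC direction near that of all genes. Pcsk1 and Pcsk2 are the 2 main convertases that cut peptide precursors, so each class was higher in a different enzyme. Of 11 receptors tested, 3 were higher in amacrine nuclei, Tacr3 (3.81), Tacr1 (1.44) and Sstr2 (1.13), and 4 in RGC nuclei, Npy1r (−3.70), Oprm1 (−2.65), Vipr2 (−2.34) and Oprl1 (−1.07). The median log2 difference was 0.47 over the precursors, 0.12 over the processing genes and −0.40 over the receptors, against −0.03 over all genes. These counts and medians are descriptions, since a gene with low counts in 1 class enters the test only if it is higher in the other. Grp, Pdyn and Syt10 passed the filter on low counts only through amacrine libraries, and Calca, Calcb and Npy1r only through RGC libraries.

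The effect of the genotype on the peptide genes was compared in each gate, over 4 control and 4 cKO libraries. In amacrine nuclei, edgeR called 0 of 11016 genes (0%) by the same rule, with 395 at an unadjusted p under 0.05, and DESeq2 also called 0. In RGC nuclei edgeR called 0 of 18319 genes (0%), with 626 at an unadjusted p under 0.05, and DESeq2 called 2. Without replicates 10 and 13 edgeR called 0 genes in each gate. Then 737 of 11114 genes in amacrine and 1924 of 18793 in RGC nuclei had an unadjusted p under 0.05. With 1 library left out that number in RGC nuclei ran from 312 (without control replicate 3) to 1285 (without cKO replicate 10). Accordingly 0 of the 4 members tested in amacrine nuclei and 0 of the 8 tested in RGC nuclei passed, and the same was true of the further precursors, processing genes and receptors. Penk, Cck, Gal, Nmb and Vip had too few counts to be tested in amacrine nuclei, as had Vip in RGC nuclei.

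In amacrine nuclei Cartpt varied widely between libraries. It was at 529, 247, 641 and 165 CPM in control replicates 1 to 4 and at 238, 1421.5, 1010 and 346 CPM in cKO replicates 10 to 13. Replicates 11 and 12 were the highest of the 8 and the other cKO libraries lay among the controls, with means of 396 ± 226 and 754 ± 561 CPM. The log2 difference of cKO over control was 0.88 (edgeR, unadjusted p = 0.0796, adjusted p = 0.9998), ranging from 0.41 to 1.25 with 1 library left out. In the 6 libraries without replicates 10 and 13 it was 1.59 (edgeR, adjusted p = 0.251). With no filter on low counts edgeR called 32 genes, Cartpt among them at 0.87 (adjusted p = 7.02e-11) and Sst at −1.42 (adjusted p = 2.76e-05), and DESeq2, run with the filter only, called 0. Cluster 51 gave 5, 2, 4 and 1 of the gated nuclei in control replicates 1 to 4 and 3, 7, 6 and 6 in cKO replicates 10 to 13, and without it the gate stood at 63.0 CPM of Cartpt in control and 87.8 CPM in cKO libraries, pooled.

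In RGC nuclei Cartpt was at 239, 167, 129.6 and 127 CPM in control replicates 1 to 4 and at 211, 330.5, 233 and 176 CPM in cKO replicates 10 to 13. The groups overlapped, since control replicate 1 was higher than 3 of the 4 cKO libraries. The log2 difference was 0.45 (edgeR, unadjusted p = 0.0426, adjusted p = 0.9965), ranging from 0.29 to 0.66 with 1 library left out. Without replicates 10 and 13 it was 0.69 (edgeR, adjusted p = 0.278). A Cartpt UMI was found in 41.9% ± 4.40 of RGC nuclei in control and 48.2% ± 1.17 in cKO libraries (exact permutation test, p = 0.0857), and in 19.3% and 24.9% after thinning (p = 0.0857, exact permutation test). The level of Cartpt in the empty droplets moved along, at 2353, 1784, 1737 and 1719 CPM in control replicates 1 to 4 and 2795, 3068, 1972 and 2290 CPM in cKO replicates 10 to 13, means of 1898 ± 305 and 2531 ± 493 CPM (exact permutation test, p = 0.0857). The part of free RNA in the difference between RGC nuclei was not tested.

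Sst had opposite signs in the gates. In amacrine nuclei it was at 12.0, 33.2, 63.5 and 17.0 CPM in control replicates 1 to 4 and at 12.8, 5.79, 2.84 and 19.9 CPM in cKO replicates 10 to 13, with overlap and a log2 difference of −1.42 (edgeR, unadjusted p = 0.00925, adjusted p = 0.9998), ranging from −2.06 (without cKO replicate 13) to −0.89 (without control replicate 3) with 1 library left out. Without replicates 10 and 13 it was −3.01 (edgeR, adjusted p = 0.323). In RGC nuclei it was at 2.62 ± 1.17 CPM in control and 4.55 ± 1.95 CPM in cKO libraries, a log2 difference of 0.71 (unadjusted p = 0.0706, edgeR), or 0.58 without replicates 10 and 13. A test of whether the class difference itself changed with genotype called 6 of 18410 genes (0.0326%), and Sst was 1 of them, at −2.21 ± 0.43 (edgeR, adjusted p = 0.0218). The other 5 were Olfm3, B230209E15Rik, Gm32647, Kitl and Grik1, named after their values were seen.

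The nuclei of cluster 56 that passed the amacrine gate alone were few. They numbered 0, 2, 2 and 2 in control replicates 1 to 4 and 3, 0, 0 and 3 in cKO replicates 10 to 13, so replicates 11 and 12, with the highest Sst CPM in cluster 56, gave none. With classes taken from clusters in place of the gates, the interaction for Sst was −0.16 (edgeR, adjusted p = 0.998), and the Sst difference in amacrine-like nuclei was 0.30 in place of −1.42. Without cluster 56 the interaction for Sst was still −1.86 but did not pass in edgeR, and without replicates 10 and 13 the interaction was −3.41 (edgeR, adjusted p = 0.00105). In those 6 libraries Cartpt passed as well, at 0.91 (edgeR, adjusted p = 0.00105), among 15 genes. The call for Sst was also lost when control replicate 2, 3 or 4 or cKO replicate 11 was left out, at −2.24, −1.73, −2.13 and −1.97 (edgeR, adjusted p = 0.0647, 0.225, 0.0581 and 0.148).

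The other members tested did not pass in either gate. In amacrine nuclei the log2 difference of cKO over control was −0.20 for Tac1 (−0.51 to −0.04 with 1 library left out) and −0.22 for Npy (−0.41 to 0.012), with unadjusted edgeR p values of 0.434 and 0.512. Without replicates 10 and 13 these were −0.02 and −0.76 (edgeR, adjusted p = 0.997 and 0.846). In RGC nuclei Tac1 was at 26.1, 26.4, 27.4 and 21.7 CPM in control replicates 1 to 4 and 19.1, 33.4, 32.3 and 19.8 CPM in cKO replicates 10 to 13, the cKO libraries lying either side of the controls, and Penk at 5.86, 9.38, 8.12 and 7.26 CPM and 5.74, 10.4, 10.9 and 7.76 CPM. The log2 differences were −0.03 for Tac1, or 0.29 without replicates 10 and 13 (edgeR, adjusted p = 0.384), and 0.11 for Penk. Cck was at 3.48 ± 0.435 CPM in control and 4.68 ± 0.702 CPM in cKO libraries, a log2 difference of 0.36 (edgeR, unadjusted p = 0.0322, adjusted p = 0.9965), and Npy (0.32), Gal (0.14) and Nmb (−0.18) had smaller differences. With 1 library left out Npy ranged from 0.033 to 0.65, Gal from −0.13 to 0.36 and Nmb from −0.25 to −0.09. Without replicates 10 and 13 the differences were 0.39 for Penk, 0.45 for Cck, 0.20 for Npy, 0.58 for Gal and −0.12 for Nmb, with edgeR adjusted p values of 0.393 to 0.898. Of 18 comparisons of the share of gated nuclei with a UMI, over 9 genes and 2 gates, each had overlapping groups and 0 reached p under 0.05 in the exact permutation test; 4 against 2 libraries, without replicates 10 and 13, cannot reach it. With amacrine-like clusters in place of the gate, the shares of nuclei with Cartpt and with Gal were higher in cKO libraries by 8.28 and 0.721 percentage points (exact permutation test, p = 0.0286 each, the smallest possible and unadjusted). The shares with Gal rest on 4 to 13 nuclei per library. With nuclei thinned to 2000 UMIs both differences were smaller, at 6.60 and 0.196 percentage points, and the groups overlapped (exact permutation test, p = 0.114 and 0.629).

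**Figure D5:**
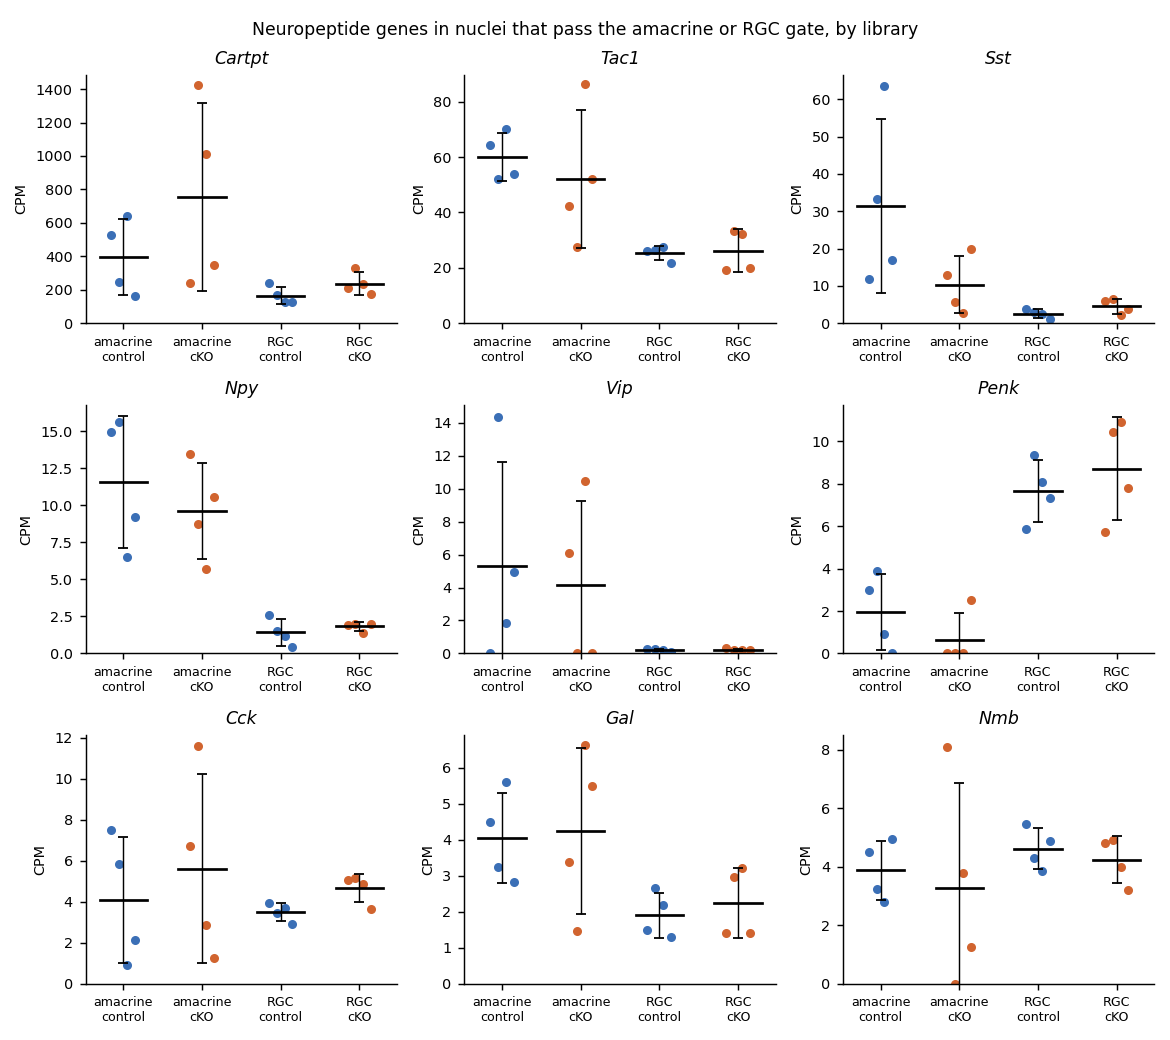
CPM of each neuropeptide gene in amacrine-gated and RGC-gated nuclei, 1 point per library with the mean and SD of the 4 control and 4 cKO libraries. Control and cKO points overlap for Cartpt in both gates, at means of 396 and 754 CPM in amacrine and 166 and 237 CPM in RGC nuclei.

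Over the 60 clusters, the members had little in common with each other. The strongest Pearson correlations of log2(CPM + 1) of a pair, taken over clusters that share libraries and differ in depth, were 0.394 for Sst and Penk, 0.343 for Sst and Gal and −0.352 for Cartpt and Gal. The 3 genes whose pattern was most like that of a member, among 17122 others with at least 200 UMIs, were Gm48807 (0.584), Gm45488 (0.578) and Sin3b (0.574) for Cartpt and Ywhaq (0.540), Baiap2 (0.535) and 6330403K07Rik (0.493) for Tac1. For Sst they were Corin (0.664), Gm12153 (0.661) and Calr (0.651), for Npy Rpl26 (0.647), Aurkaip1 (0.638) and Gabarapl2 (0.636), and for Vip A930001A20Rik (0.637), C1qtnf7 (0.621) and Fgf10 (0.573). After A830012C17Rik (0.909), Penk was most like Fibin (0.512) and Als2cl (0.495), far below it. For Cck they were Fnta (0.551), Rpl23a (0.530) and Rasgrp1 (0.513), for Gal Vcpip1 (0.479), Bace2 (0.462) and Pate1 (0.447), and for Nmb Tlcd3a (0.712), Gm38190 (0.711) and Nacad (0.691). These are descriptions over n = 60 clusters, many of them holding few UMIs of the gene.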

How the data were processed

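The deposited tables hold the authors' unfiltered UMI counts for every gene in every barcode, made with Cell Ranger 7.0.0 on GRCm39 per the labels' processing notes (10x 3′ v3.1 chemistry). The file headers name Cell Ranger 4 instead, and whether intronic reads were counted is not given in the sources used here. Their later ambient RNA removal and doublet calls are not in these counts. Barcodes were called here by an order-of-magnitude step with 8000 expected nuclei plus a test against the empty droplets (barcode ranks 45000 to 90000). Nuclei with under 200 genes, over 5% mitochondrial UMIs or values beyond 5 median absolute deviations (3 for the mitochondrial share) were dropped, then 1378 doublets, which left 34951 of 45952. The 8 libraries held 35697629 to 60088630 UMIs in all. Clusters came from 2000 variable genes, 30 principal components and Leiden at resolution 0.7 (scanpy 1.11.5), and names from fixed marker lists. The way markers were scored was revised after the clusters were seen.

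UMIs were summed per library and gate and tested with edgeR 4.0.16 (quasi-likelihood, TMM scaling, default filter on low counts, Benjamini-Hochberg). Calls required an adjusted p under 0.05 together with a log2 difference over 0.5. Levels and shares were compared by exact two-sided permutation tests over the 70 assignments of 4 against 4 libraries, whose smallest p is 0.0286. Alternatives were DESeq2 1.42.0, its size factors, no filter, other calling of nuclei, thinning to 2000 UMIs, clusters, and libraries left out. The fits were run on simulated counts with the same spread set for every gene. Such a run does not check the errors of genes carried by few nuclei, such as Sst, Cartpt and Vip. Members and lists were chosen with earlier results of these data known. The rule for named genes takes the 9 members, the 3 genes most like each over clusters, and from each other list the 3 called genes with the largest rise and fall. The other called genes of the lists, the markers given for clusters and the genes of the interaction were named after their values were seen. P-values measure the spread between pools of retinae. In edgeR that spread is estimated in part over all genes. The errors of Sst and Cartpt, carried by few nuclei, can therefore be smaller than their own spread between libraries.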

Additional observations from a re-analysis of the deposited data

Results flagged for a closer look

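Single libraries that lay far from the other 3 of their group, by Dixon's test, were found in 7 of 90 groups of 4, where chance gives about 5%. Cartpt was found in 49.96% of RGC-gated nuclei of cKO replicate 11, against 47.5% to 47.7% in the other cKO libraries. In the empty droplets Cartpt stood at 2353 CPM in control replicate 1, against 1719 to 1784 CPM in the other controls. The same control library had the lowest shares of RGC-gated nuclei with Tac1 (10.6%, against 15.8% to 16.1%) and with Cck (1.93%, against 2.88% to 3.06%). Its RGC-gated nuclei were also the shallowest of the controls, at a median of 5072 UMIs against 7542 to 11038. The part of depth in these shares was not tested. Npy in RGC-gated nuclei was at 1.41 CPM in cKO replicate 12, against 1.92 to 2.01 CPM. Penk was at 2.54 CPM and in 2.18% of amacrine-gated nuclei in cKO replicate 13, and at 0 in the other cKO libraries. Both values rest on the same 6 UMIs, of which 4 lay in nuclei that also passed the RGC gate. The class difference of Sst changed with genotype by −2.21 on the log2 scale (edgeR, adjusted p = 0.0218). That call was lost with clusters in place of the gates (−0.16), without cluster 56 (−1.86), and without control replicate 2, 3 or 4 or cKO replicate 11 (−2.24, −1.73, −2.13 and −1.97), and was kept at −3.41 without cKO replicates 10 and 13 (edgeR, adjusted p = 0.00105).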

How the results depend on the processing

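The count of genes that differ between amacrine and RGC nuclei was 3944, 3580 with no replicate block (library) and 3358 to 3711 with 1 library left out, but 2363 with nuclei thinned to 2000 UMIs. It was 3216 with DESeq2, 4895 over all 8 libraries and 4966 with clusters. With clusters 2658 were higher and 2308 lower in amacrine nuclei, against 1810 higher and 2134 lower with the gates. No paired analysis was possible because control and cKO libraries share no replicate number. For genotype, RGC nuclei gave 0 genes and DESeq2 2. Without cKO replicates 10 and 13 each gate gave 0 genes. Amacrine nuclei gave 0 genes, 32 with no filter and 0 to 5 with 1 library left out, 5 being without control replicate 4. The interaction gave 6 genes, 22 with no filter, 2 with clusters, 2 after thinning, 2 without cluster 56, 15 without cKO replicates 10 and 13, and 2 to 17 with 1 library left out: 17 without control replicate 1, 16 without cKO replicate 10 or 12, and 2 without control replicate 2 or 4 or cKO replicate 11. Of the 18 shares, 0 passed in the gates, 2 with clusters and 0 to 1 with 1 library left out, that 1 being Cartpt in RGC nuclei without control replicate 2, by 8.17 percentage points.

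Values that changed sign were, between classes, Cartpt without cluster 51 (−1.25) and Cck with clusters (0.51) and in cKO libraries (0.19). For genotype they were Nmb in RGC nuclei after thinning (0.018), Tac1 in RGC nuclei without cKO replicates 10 and 13 (0.29), Sst in amacrine nuclei with clusters (0.30), and the share of amacrine nuclei with Sst with clusters (0.706 percentage points). In the interaction they were Cartpt without cluster 51 (−0.22), Cck with clusters (−0.45) and Gal without cKO replicates 10 and 13 (−0.16). With 1 library left out the interaction ranged from −0.047 to 0.62 for Cartpt (below 0 without cKO replicate 11 or 12), −0.20 to 0.16 for Tac1 (above 0 without cKO replicate 11) and −1.84 to 0.35 for Vip (above 0 without control replicate 2). The causes were not tested, beyond the clusters and libraries named. Of the values for single genes, 740 kept their direction and side of the threshold, or changed sign within their own error while not called (55). Leaving out cluster 51, cluster 56 or cKO replicates 10 and 13, and the interaction with clusters or after thinning, were chosen after the data were seen.

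The amacrine gate, with 111 to 229 nuclei per library, limits the tests there: 5 of the 9 genes were not tested, and 1 to 7 nuclei of cluster 51 per library set the level of Cartpt. Intervals and tests do not cover effects of the sort or of free RNA that are shared by all libraries.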
